A study of Mus musculus with 8 samples.

Results

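Keratins 6a, 6b, 16 and 17 are the wound and stress keratins of skin, and this account follows their 4 genes (Krt6a, Krt6b, Krt16 and Krt17) through mouse palm skin that received pituitary adenylate cyclase-activating polypeptide (PACAP) or vehicle. The genes were taken by name from the array annotation, with no threshold on their values, and are 4 of the 29608 gene names and 5 of the 39429 gene probes measured. The set was chosen with earlier results of these data known, so its calls and ranks describe it and are no independent test. C57BL/6J wild-type (WT) mice and C57BL/6J mice lacking the PACAP receptor gene Adcyap1r1 (Adcyap1r1 -/-, PAC1R KO) were 9 to 10 weeks old. Under anaesthesia, 5 µL of saline with bovine serum albumin was injected into the centre of the footpad, with PACAP at 1e-07 mol/L or without it, and forepaw skin was taken 30 or 60 min later. All groups thus shared the anaesthesia, the needle injection and the carrier, and no skin without an injection was measured. The design named 6 mice of each genotype, and the mice behind each RNA sample were not given. Each of the 4 comparisons (WT and KO at 30 and 60 min) set 1 PACAP RNA sample against 1 vehicle RNA sample on 2 arrays with the dyes swapped. The swapped arrays measured the same RNA pair, so their spread is technical and no single comparison can be tested across mice. The WT arrays shared 1 slide and the KO arrays a different one. Genotype therefore cannot be told apart from slide.

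Keratins form the intermediate filaments of epithelial cells, and a filament needs a type I partner paired with a type II partner. Keratins 6a and 6b are type II and pair with keratins 16 and 17, which are type I. In resting skin these keratins are made mainly in the outer root sheath and companion layer of the hair follicle, in the nail bed and in the skin of palms and soles, and keratinocytes between the follicles switch them on after wounding, friction or inflammation.

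The probes that measured the 4 genes are shown first, because the Krt6a and Krt6b transcripts are close copies and the probe decides which of them is read. Krt6b had 2 probes and the other genes 1 each. Each probe is 60 bases long on the minus strand of mm9. The Krt6a probe lies at chr15:101520862-101520921, the probe of Krt6b alone at chr15:101506492-101506551, and the second Krt6b probe at chr15:101509450-101509509. The array annotation assigned that second probe to the transcripts of both Krt6a and Krt6b, so it is called the shared probe here. The type I probes lie at chr11:100107408-100107467 (Krt16) and chr11:100117535-100117594 (Krt17). The shared probe is printed whole and 30 bases of each of the others, with capitals on the AATAAA polyadenylation signal letters.
Krt6a: agcaagaagagctacaggcagtgaattctg
Krt6b, own probe: cttgtgacaacacagtcattagtcctgtgc
Krt6a and Krt6b, shared probe: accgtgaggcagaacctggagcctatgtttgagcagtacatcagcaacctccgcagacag
Krt16: tggtggtaggctAATAAAgctttttggttg
Krt17: ttctgaacactgaAATAAAtgaccatggtg

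The AATAAA letters were in 2 of the 5 probes as printed and in none on the other strand, beside 12.6% of all gene probes as printed and 4.03% on the other strand. No other array probe shared 20 bases in a row with any of the 5. All 5 probes were well above background in both dyes on all 8 arrays and none was saturated.

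The label of the knockout was checked at its target. The Adcyap1r1 probe gave log2 levels of 8.28 (30 min) and 8.67 (60 min) in WT vehicle skin and 7.98 and 8.56 in the skin labelled KO. The difference, -0.21 on the log2 scale (SE 0.27, limma adjusted p = 0.96), did not pass the test. The part of the gene removed is not given in the sources used here, so this probe checks the label only if it lies inside that part. The tissue label was checked with the keratin of palm and sole epidermis: the Krt9 probe lay between 15.10 and 15.70 in vehicle skin. The share of gene spots well above background ran from 78.6% to 94.5% for the red dye and from 54.0% to 65.3% for the green dye.

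A probe was called higher or lower, with the fold and p limits of the study, when its mean ratio of PACAP over vehicle reached 2.0-fold or fell to 0.5-fold, with both arrays on the same side of 1 and a scanner p below 0.01 on each. How the study joined the swapped arrays for its limits is not given in the sources used here, so the use of the mean and of both arrays is a choice of the present processing. That p covers the noise of the spot and not the spread between mice. In these bulk samples, fewer cells of a type and less RNA per cell cannot be told apart. In WT skin at 30 min none of the 5 keratin probes was called, against 0.254% of all probes called higher and 0.0964% called lower. In KO skin at 30 min 3 of 5 were called higher (0.601% of all probes), and in WT skin at 60 min 3 of 5 (0.583%). In KO skin at 60 min all 5 were called higher (0.142% of all probes). None was called lower in any comparison, where 0.107%, 0.109% and 0.15% of all probes were called lower in KO at 30 min, WT at 60 min and KO at 60 min. The log2 ratio of all 5 was below 0 on both arrays in WT at 30 min, as for 22% of all probes, while 20.4% were above 0 on both. It was above 0 on both arrays for all 5 in KO at 30 min (22.3% of all probes above, 26.1% below), WT at 60 min (15.5% above, 18.7% below) and KO at 60 min (17.6% above, 17.4% below). Krt16, Krt17 and Krt6a were named by the study from its own reading of these arrays, so their direction in KO skin is not independent evidence.

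**Figure D1:**
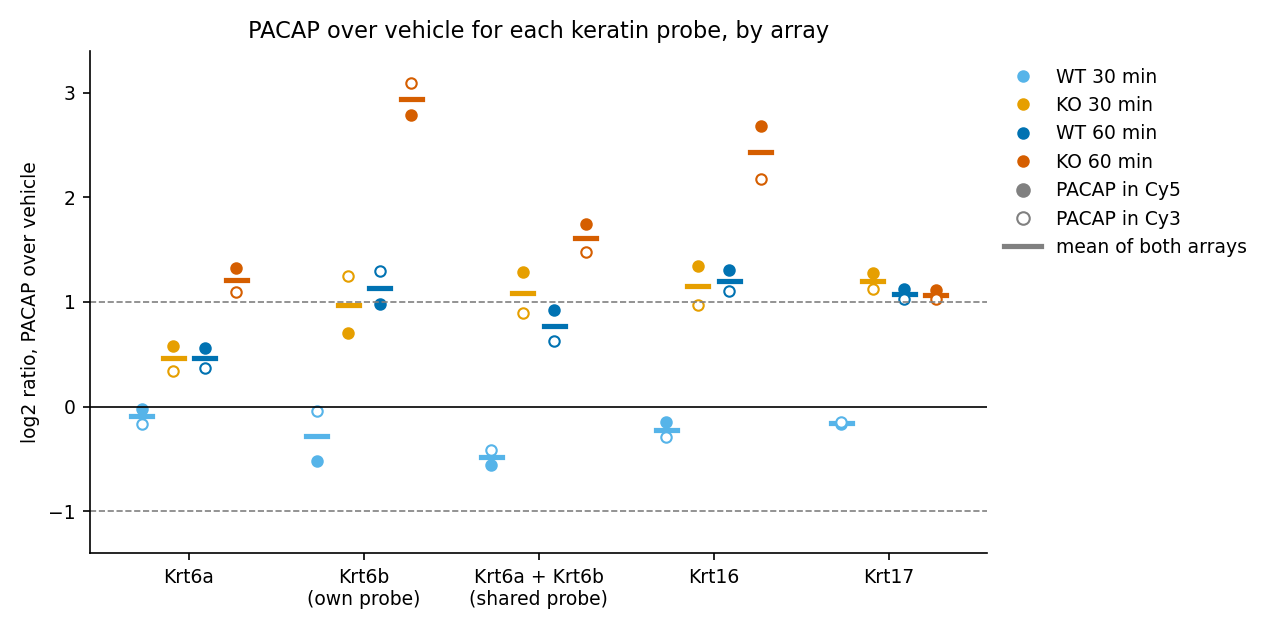
The log2 ratio of PACAP over vehicle (y axis) for the 5 keratin probes (x axis) in the 4 comparisons, with filled points for the array with PACAP in Cy5, open points for PACAP in Cy3 and bars for their mean; dashed lines mark 2.0-fold and 0.5-fold. All WT 30 min points lie below 0, all others lie above 0, and KO 60 min is highest for every probe except Krt17.

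Keratin 6b, read by its own probe in KO skin at 60 min, gave the largest ratio of the group. Its own probe read 0.699-fold and 0.970-fold on the 2 arrays of WT skin at 30 min. The KO arrays at 30 min read 1.63-fold and 2.37-fold. At 60 min the WT arrays read 1.97-fold and 2.45-fold, and the KO arrays 6.91-fold and 8.54-fold. The mean folds were 0.824, 1.97, 2.20 and 7.68, in the order WT 30 min, KO 30 min, WT 60 min and KO 60 min, so that both comparisons at 60 min passed the thresholds and KO at 30 min fell just short of 2.0-fold. The KO values at 60 min lay above both arrays of each other comparison.

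Krt6a, the close copy of Krt6b, stayed nearer to 1. Its arrays read 0.983-fold and 0.893-fold in the WT 30 min comparison (mean 0.937-fold). Those of KO at 30 min had log2 ratios of 0.58 and 0.34 (mean 1.38-fold), and those of WT at 60 min read 1.47-fold and 1.29-fold (also 1.38-fold). KO at 60 min, with 2.51-fold and 2.14-fold and a mean of 2.32-fold, was the only comparison in which Krt6a was called. The shared probe, which reads both copies, gave means of 0.714-fold, 2.13-fold, 1.71-fold and 3.06-fold in WT 30 min, KO 30 min, WT 60 min and KO 60 min. At 60 min these values lay between those of the Krt6a probe and the Krt6b probe in both genotypes. At 30 min they lay outside them, below both in WT and above both in KO skin. Taking the mean log2 ratio of both Krt6b probes in place of the brighter one lowered the KO 60 min value from 2.94 to 2.28. That is below the Krt16 value of 2.43.

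Krt16, a type I partner of keratin 6, followed Krt6b. Its arrays read 0.903-fold and 0.817-fold (mean 0.859-fold) in the WT 30 min comparison. Those of KO at 30 min read 2.53-fold and 1.96-fold (mean 2.23-fold), and those of WT at 60 min 2.47-fold and 2.15-fold (mean 2.30-fold). The KO arrays at 60 min read 6.42-fold and 4.52-fold, a mean of 5.38-fold. Krt16 was called in all comparisons but WT at 30 min.

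Krt17, the other type I partner, did not share the step between KO skin and the rest at 60 min. Its arrays read 0.894-fold and 0.905-fold in the WT 30 min comparison (mean 0.899-fold). The arrays of KO at 30 min read 2.42-fold and 2.18-fold, those of WT at 60 min 2.17-fold and 2.04-fold, and those of KO at 60 min 2.16-fold and 2.04-fold. The arrays of both genotypes at 60 min overlapped, with means of 2.10-fold each, and KO at 30 min lay just above them with a mean of 2.30-fold. The Krt17 dye swaps were also even, with SDs between arrays of 0.012 to 0.11 on the log2 scale, against 0.10 to 0.36 for Krt16.

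Ranked by ratio among all genes, each read by its brightest probe, Krt6b was number 8 and Krt16 number 13 of 29606 in KO skin at 60 min. Krt6a was number 53 and Krt17 number 79. In that comparison 53 genes (0.179%) were called higher and all 4 keratins were among them. At 30 min in KO skin Krt17, Krt16, Krt6b and Krt6a were numbers 188, 200, 263 and 1820 of 29605. There 2 of the 4 genes were called (0.692% of all genes). In WT at 60 min Krt16, Krt6b, Krt17 and Krt6a were numbers 203, 220, 230 and 1034 of 29606, and 3 of the 4 were called (0.659%). In WT at 30 min they ranked between 19183 and 25228 of 29608, with none called (0.267% called higher).

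The level in each RNA sample shows which side of a ratio moved. Levels are log2 intensities of 1 probe after normalization across arrays, averaged over the dye swap, and are compared between samples only within a probe. For Krt16 the vehicle samples stood at 15.17 (WT 30 min), 14.53 (KO 30 min), 13.55 (WT 60 min) and 13.81 (KO 60 min). The PACAP samples stood at 14.96, 15.64, 14.76 and 16.19 in the same order. The ratio near 1 in WT at 30 min therefore had the highest vehicle level of the 4, and its PACAP level was above that of WT at 60 min. The 2 arrays of the KO 60 min vehicle sample differed most for this probe, 13.30 and 14.33, and overlapped those of the WT 60 min vehicle sample.

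For Krt6b the own probe gave vehicle levels of 14.62 (WT 30 min), 14.40 (KO 30 min), 13.31 (WT 60 min) and 13.66 (KO 60 min) and PACAP levels of 14.35, 15.38, 14.49 and 16.48. The WT PACAP samples thus differed little between the times (0.15 on the log2 scale) while the WT vehicle samples differed by -1.31, 60 min minus 30 min. The KO PACAP sample at 60 min was 2.14-fold that at 30 min, and the KO vehicle samples differed by -0.74. In order of level, KO 60 min PACAP and KO 30 min PACAP were separate from all others, and the next 4 samples overlapped with their neighbours over the dye swap.

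Krt6a varied least. Its vehicle levels were 13.69 (WT 30 min), 13.02 (KO 30 min), 12.88 (WT 60 min) and 13.16 (KO 60 min), and its PACAP levels 13.61, 13.51, 13.33 and 14.38. KO 60 min PACAP was separate from the rest, and the 3 lowest vehicle samples overlapped over the dye swap. The shared probe gave 11.41, 10.16, 9.92 and 10.63 in vehicle skin and 10.97, 11.19, 10.66 and 12.26 in PACAP skin, in the same order of comparisons.

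Krt17 differed from the other keratins in vehicle skin. Its vehicle levels were 12.38 (WT 30 min), 12.09 (KO 30 min), 11.81 (WT 60 min) and 12.88 (KO 60 min), so the KO 60 min sample was highest, where for Krt16 the WT 30 min sample was highest. The Krt17 PACAP levels were 12.22, 13.27, 12.95 and 13.92. For the Krt6b probe the order of the WT and KO vehicle samples at 30 min turned with the scaling. They stood at 14.62 and 14.40 here and 14.62 and 14.74 from the deposited processed signals, not normalized between arrays. The same order turned for Krt17, at 12.38 and 12.09 here and 12.21 and 12.29 from those signals. For Krt6a the WT and KO PACAP samples at 30 min turned, at 13.61 and 13.51 here and 13.42 and 13.79 from those signals. For each of the 5 probes the highest of the 8 samples was KO 60 min PACAP and the lowest WT 60 min vehicle.

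**Figure D2:**
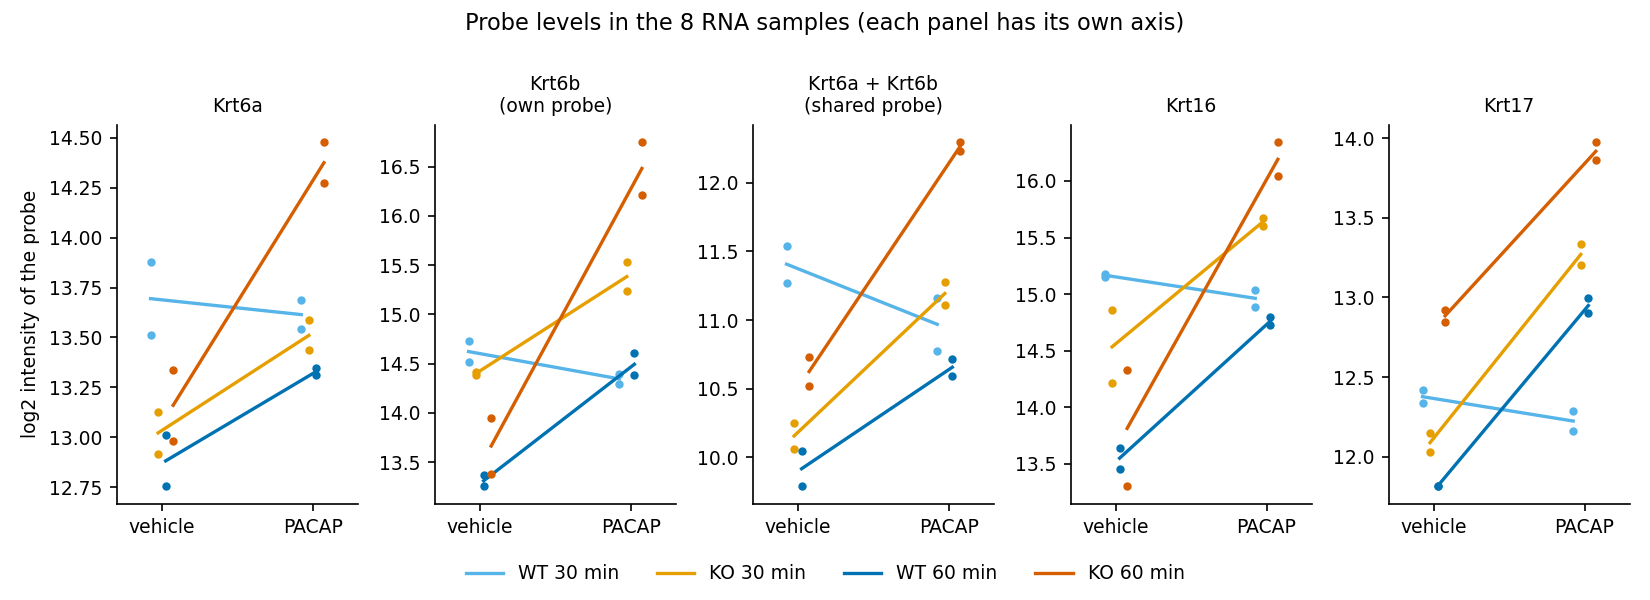
Log2 intensity (y axis, a separate scale in each panel) of the 5 keratin probes in vehicle and PACAP skin (x axis); points are single arrays and lines join the means of the vehicle and PACAP sample of a comparison. The WT 30 min line runs flat or down from a high vehicle level in the Krt6 and Krt16 panels, and the KO 60 min line ends highest in each panel.

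The basal keratins Krt5, Krt14 and Krt15, which mark the proliferating layer of the epidermis, had summed levels of 16.68, 16.90, 16.56 and 16.60 in the vehicle samples (WT 30 min, KO 30 min, WT 60 min, KO 60 min) and 16.84, 16.46, 16.81 and 16.90 in the PACAP samples. None of the 3 was called in any comparison, and their highest ratio, of Krt15 in WT skin at 60 min, was 1.39-fold.

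Tests over the 4 comparisons used limma, with the dye swap averaged to 1 value per comparison. The mean PACAP effect on the log2 scale was 1.19 (SE 0.46) for the Krt6b probe, 1.14 (SE 0.38) for Krt16, 0.80 (SE 0.23) for Krt17, 0.75 (SE 0.32) for the shared probe and 0.51 (SE 0.20) for Krt6a. Each was above 0 in 3 of 4 comparisons, and the adjusted p was 1 for all 5. Without the KO 60 min comparison the effect was 0.61 for the Krt6b probe, 0.71 for Krt16, 0.46 for the shared probe and 0.28 for Krt6a, so KO at 60 min carried a large share of it. Without WT 30 min the shared probe stood at 1.16, and Krt17 ranged from 0.66 to 1.11 over the 4 leave-outs. Limma called 0 of 30351 probes at an adjusted p below 0.05. At an unadjusted p below 0.05 it had 678 (2.23%), among them all the keratin probes but the shared one.

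The ratio was higher in KO than in WT skin by 1.53 (SE 0.72) for the Krt6b probe, 1.30 (SE 0.58) for Krt16, 1.21 (SE 0.43) for the shared probe, 0.67 (SE 0.40) for Krt17 and 0.65 (SE 0.33) for Krt6a, in log2 units and with a limma adjusted p of 0.84 for all. With time as a covariate the adjusted p was 0.11 for the Krt6b probe, 0.28 for Krt16 and 0.41 for the shared probe. Without the WT 60 min comparison the difference became 2.24 (adjusted p = 0.00015) for the Krt6b probe, 2.01 (adjusted p = 0.0016) for Krt16 and 1.84 (adjusted p = 0.0084) for the shared probe, where the lone WT comparison is assumed to vary like the KO ones. Leaving out the WT 30 min comparison instead gave 0.82, 0.59 and 0.58, with an adjusted p of 1 for each. Without KO 60 min the Krt6b probe stood at 0.55, Krt16 at 0.66 and Krt6a at 0.28, and without KO 30 min they stood at 2.51, 1.94 and 1.03 (adjusted p 0.57 to 1). The remaining leave-outs that moved a value by much were those of WT 30 min for Krt6a (0.37) and Krt17 (0.06) and of WT 60 min for Krt17 (1.29). The size of the genotype difference thus depended on each of the 4 comparisons. With all 4 comparisons limma called 0 probes, and 972 (3.2%) had an unadjusted p below 0.05.

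The ratio at 60 min exceeded that at 30 min by 1.69 (SE 0.68) for the Krt6b probe and 1.35 (SE 0.58) for Krt16, with an adjusted p of 1 in limma. The differences for the shared probe, Krt6a and Krt17 were 0.89, 0.65 and 0.55. Leaving out KO 60 min gave 0.79 for the Krt6b probe, 0.74 for Krt16, 0.47 for the shared probe and 0.28 for Krt6a. Leaving out WT 30 min gave 1.06, 0.66, 0.10 and 0.38 for the same probes and -0.13 for Krt17. The highest values were 2.59 for the Krt6b probe and 1.03 for Krt6a without WT 60 min, and 2.04 for Krt16, 1.68 for the shared probe and 1.23 for Krt17 without KO 30 min. With genotype as a covariate the Krt6b probe had an adjusted p of 0.092 and Krt16 of 0.31. Over all probes 0 were called and 483 (1.59%) had an unadjusted p below 0.05.

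Between the vehicle samples alone, Krt16 was lower at 60 than at 30 min by -1.17 (SE 0.25, limma adjusted p = 0.21) and the Krt6b probe by -1.02 (SE 0.16, adjusted p = 0.19), in both genotypes. The shared probe differed by -0.51, Krt6a by -0.34 and Krt17 by 0.12, and for these 3 the genotypes went opposite ways. The shared probe differed by -1.49 in WT and 0.47 in KO skin, Krt6a by -0.81 and 0.14, and Krt17 by -0.56 and 0.80. The sign turned without WT 30 min for the shared probe (0.12) and without KO 30 min (-0.03) or KO 60 min (-0.42) for Krt17. Krt6a kept its sign but ranged from -0.67 without KO 30 min to -0.00093 without WT 30 min. No probe of 37538 passed the adjusted threshold and 6294 (16.8%) had an unadjusted p below 0.05. The 4 vehicle samples also supplied the lower side of every PACAP ratio, so the lower Krt16 and Krt6b vehicle levels and higher ratios at 60 min are not separate observations. Vehicle levels in KO minus WT ranged from -0.27 for the shared probe to 0.39 for Krt17 (adjusted p 0.94 to 1.0). Their signs depended on single comparisons: without WT 30 min the shared probe stood at 0.47, Krt16 at 0.62 and Krt6a at 0.21, without KO 60 min Krt16 stood at 0.18 and Krt17 at -0.01, and the Krt6b probe (0.07) stood at -0.59 without WT 60 min and -0.30 without KO 30 min. Limma called 0 probes, with 2428 (6.47%) at an unadjusted p below 0.05.

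The rest of the keratin family was set beside the 4 genes. The array measured 50 other keratin genes, 45 of them in 7 classes by the tissue layer that makes them. Of all genes, 0.267%, 0.692%, 0.659% and 0.179% were called higher and 0.108%, 0.098%, 0.115% and 0.162% lower in WT 30 min, KO 30 min, WT 60 min and KO 60 min, and the counts of keratins and of marker genes stand beside these shares. None of the 50 was called higher in KO skin at 60 min and 1, the hair shaft keratin Krt36, was called lower (0.25-fold). The median log2 ratio was -0.23 over the 50 and 1.82 over the 4. In WT skin at 60 min 18 of the 50 were called higher, of which 11 were hair shaft and 6 inner root sheath keratins. In KO at 30 min 13 were called higher, of which 8 were hair shaft and 4 inner root sheath keratins, and 3 were lower (Krt36, and Krt10 and Krt1 of the suprabasal epidermis, at 0.36-fold and 0.45-fold). For WT skin at 30 min 4 were higher and 3 lower, and 6 of these 7 belonged to those same 2 classes. Outside the classes, Krt87 was called higher in KO at 30 min (4.06-fold) and WT at 60 min (5.35-fold) and Krt90 lower in WT at 30 min (0.479-fold), and both were named after their values were seen.

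Basal, simple, companion layer and mucosal keratins had no call in any comparison. Krt5, the partner of Krt14 and the type II neighbour of Krt6a, read 1.15-fold, 0.584-fold, 1.08-fold and 1.26-fold in WT 30 min, KO 30 min, WT 60 min and KO 60 min. Krt14, a neighbour of Krt16 in the type I cluster, read 1.06-fold, 0.915-fold, 1.20-fold and 1.33-fold in the same order.

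**Figure D3:**
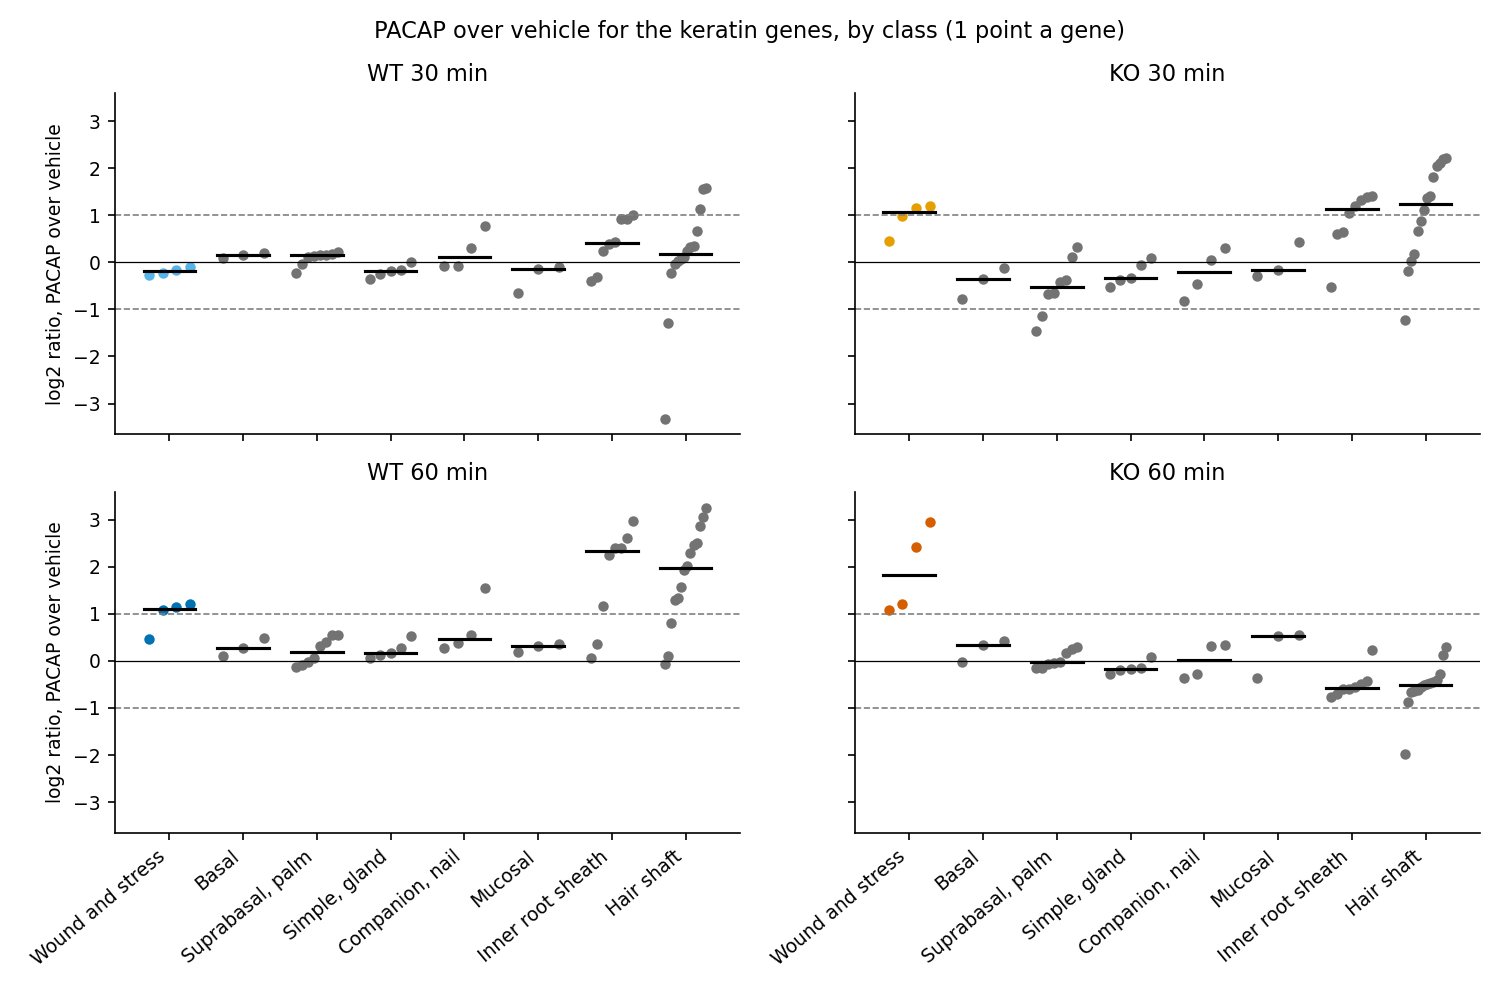
The log2 ratio of PACAP over vehicle (y axis) for the 4 wound and stress keratins (coloured) and 45 other keratin genes (grey) by class (x axis), 1 panel for each comparison; points are genes read by their brightest probe, bars are medians and dashed lines mark 2.0-fold and 0.5-fold. In KO at 60 min the 4 coloured points lie above the upper line and no grey point does, while in WT at 60 min and KO at 30 min hair shaft and inner root sheath keratins also lie above it.

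The 4 keratins are also follicle keratins, so hair markers are given beside them. A list of 13 hair shaft and inner root sheath genes that are not keratins (Tchh, Padi3, Gprc5d and keratin-associated proteins among them) had 7 higher and 1 lower in KO at 30 min, 7 higher and none lower in WT at 60 min, 2 higher and 3 lower in WT at 30 min, and none higher and 3 lower in KO at 60 min (0.179% of all genes higher and 0.162% lower there). Its median ratio was 0.908-fold, 2.04-fold, 3.17-fold and 0.740-fold in WT 30 min, KO 30 min, WT 60 min and KO 60 min. All of them but Foxn1, Krtap19-1 and Krtap13 were well above background in every sample. The summed level of the list was 12.69, 12.01, 12.14 and 14.54 in the 4 vehicle samples and 12.55, 13.05, 13.74 and 13.88 in the PACAP samples. Hair genes were thus called higher beside the keratins in KO at 30 min and WT at 60 min, where their part in the keratin ratios was not tested. In KO at 60 min, where the Krt6 and Krt16 ratios were largest, no hair gene of the list was called higher. The KO 60 min vehicle sample had the highest summed hair level and the highest Krt17 level of the 4 vehicle samples.

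Markers of some other tissues were called as well, beside the same shares of all genes. Of 12 skeletal muscle genes, 2 were called higher in WT at 30 min, where all 12 had a ratio above 1, and 3 lower in KO at 30 min (Myh4 0.40-fold), where 11 of 12 had a ratio below 1. Of 12 neutrophil genes 2 were called higher in KO at 30 min (Retnlg 2.91-fold, Fpr1 2.53-fold), and of 10 hepatocyte genes 6 were called lower in WT at 60 min. Of 8 cartilage and bone genes, 1 was called lower in WT at 30 min and 1 in KO at 30 min. The summed neutrophil level lay between 12.51 and 12.95 in all 8 samples. None of the muscle, neutrophil, hepatocyte or cartilage genes was called in KO at 60 min. Of 10 eccrine gland and 12 cornified layer genes none was called in any comparison, near the background for lists of this size. The eccrine median ratios were 0.860-fold, 0.783-fold, 1.08-fold and 0.902-fold in WT 30 min, KO 30 min, WT 60 min and KO 60 min. The part of these tissues in the keratin ratios was not tested in any comparison.

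The 4 genes sit in 2 keratin gene clusters, and the probes around them are given next. On chromosome 15 between Krt75 and Krt5 (mm9, 101393774 to 101537573) the array had 9 probes for 8 genes. For KO skin at 60 min 5 of the 9 were called higher (0.142% of all probes): the Krt6a probe, both Krt6b probes, and those of Gm5478 (5.34-fold) and Gm5476 (2.73-fold), which RefSeq lists as transcribed pseudogenes. On chromosome 11 between Krt14 and Krt42 (100064683 to 100128311) it had 6 probes for 5 genes, and Krt16, Krt17 and the transcript ENSMUST00000121423.1 (2.78-fold) were called. In KO at 30 min 2 of the 9 and 3 of the 6 were called (0.601% of all probes), with Gm5478 at 2.04-fold and ENSMUST00000121423.1 at 2.39-fold among them. In WT at 60 min 1 of the 9 and 2 of the 6 were called (0.583%), all of them probes of the 4 keratins, and in WT at 30 min none was. The outermost genes of both stretches, Krt75, Krt5, Krt14 and Krt42, were not called in any comparison. Krt75 read 2.92-fold in WT at 60 min without passing the p filter, and its probe was not well above background in every sample. The same limit holds for the Gm5477 and Gm5414 probes and the dimmer Krt42 probe, so little can be read from them. Gm5414 read 1.87-fold in KO at 60 min and was not called. These neighbours were singled out by position after their values were seen.

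**Figure D4:**
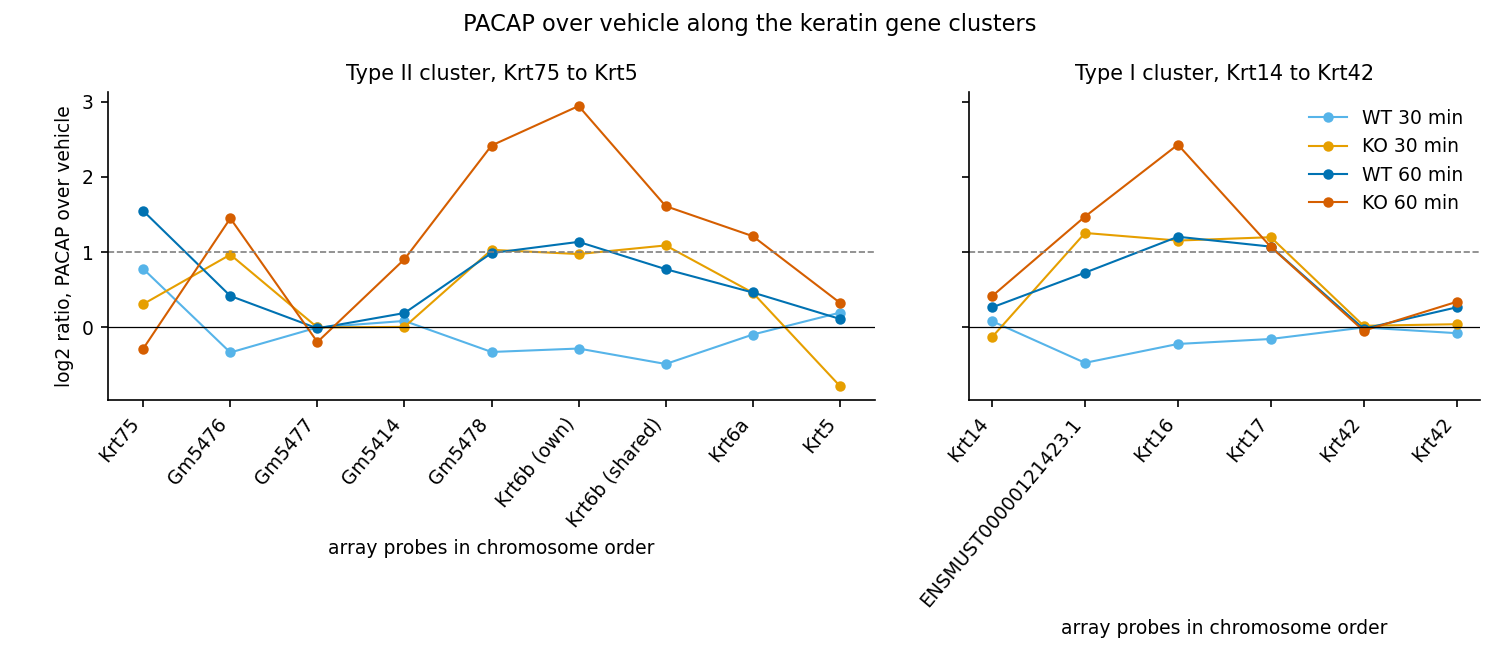
The log2 ratio of PACAP over vehicle (y axis) of each array probe in chromosome order (x axis, equal steps) along part of the type II cluster (left) and type I cluster (right), with 1 line for each comparison and a dashed line at 2.0-fold. The KO 60 min line is above 2.0-fold at Krt6a, Krt6b, Gm5478 and Gm5476 and at Krt16, Krt17 and the transcript beside Krt16, and below it at the outer genes.

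Those 3 transcripts were also among the 10 genes whose levels over the 8 RNA samples were most like the mean of the 4 keratins, out of 436 genes measured in all 8 samples that varied at least as much as the least variable keratin. The Pearson r was 0.994 for Gm5478, 0.958 for Gm5476, 0.948 for Lce3a, 0.901 for ENSMUST00000121423.1, 0.877 for Stfa1, 0.871 for Stfa2, 0.841 for Epgn, 0.835 for Sprr2a3, 0.818 for Slpi and 0.787 for Sprr2i. The 8 samples form 4 pairs on shared arrays, and KO 60 min PACAP is the highest sample for all 4 keratins, so r is a description only. Among themselves the 4 keratins had r between 0.714 (Krt16 and Krt17) and 0.962 (Krt6b and Krt16). The shared probe had r = 0.981 with the Krt6a probe and 0.875 with the Krt6b probe.

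The pseudogene probes resemble the keratin probes in part, which bears on what they read. The Gm5478 and Krt6b probes aligned over 33 bases with 26 the same, of which 30 are printed with 24 the same. Over 24 aligned bases the Gm5476 and Krt6a probes had 21 the same and 3 different. Capitals mark the bases that differ within each pair.
Gm5478: tgctcaTGtgatgTTaCctctgctctttgC
Krt6b, own probe: tgctcaCAtgatgCCaTctctgctctttgT
Gm5476: agcaGgaagagctacagTcaAtga
Krt6a: agcaAgaagagctacagGcaGtga

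The longest run of shared bases was 12 in both pairs. The ENSMUST00000121423.1 probe shared at most 6 bases in a row with any of the 5 keratin probes. How far keratin transcripts add to the signal of the pseudogene probes was not tested.

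Of the remaining similar genes, Lce3a, a late cornified envelope gene, was called in KO at 30 min (6.24-fold), WT at 60 min (2.95-fold) and KO at 60 min (9.84-fold), with 0.596-fold in WT at 30 min. Sprr2i encodes a small proline-rich protein of the cornified envelope. It read 0.577-fold, 3.06-fold, 5.41-fold and 13.3-fold in WT 30 min, KO 30 min, WT 60 min and KO 60 min. Its signal was low, with log2 vehicle levels of 7.49, 6.52, 6.90 and 6.84 and PACAP levels of 7.07, 7.16, 8.41 and 9.67 in that order. These normalized levels changed less than the ratios, so the size of the Sprr2i ratios is uncertain. The list of 12 cornified layer genes had no call in any comparison, near the background for a list of its size. Its median ratios were 1.097-fold, 0.830-fold, 1.094-fold and 1.004-fold in WT 30 min, KO 30 min, WT 60 min and KO 60 min. Of the 12 genes, 7, 2, 11 and 6 had a ratio above 1 in that order. Slpi, a protease inhibitor with antimicrobial activity, read 0.802-fold, 6.70-fold, 1.23-fold and 5.96-fold, and the stefin Stfa1 0.987-fold, 3.04-fold, 1.12-fold and 2.97-fold. Slpi and Stfa1 were therefore called in KO skin at both times and in neither WT comparison, whereas 3 of the 4 keratins were called in WT skin at 60 min. The difference between the genotypes was not tested for this contrast of genes. In all, 0, 8, 3 and 9 of the 10 were called higher in WT 30 min, KO 30 min, WT 60 min and KO 60 min. As the genes were chosen for this likeness, these counts describe them and test nothing.

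**Figure D5:**
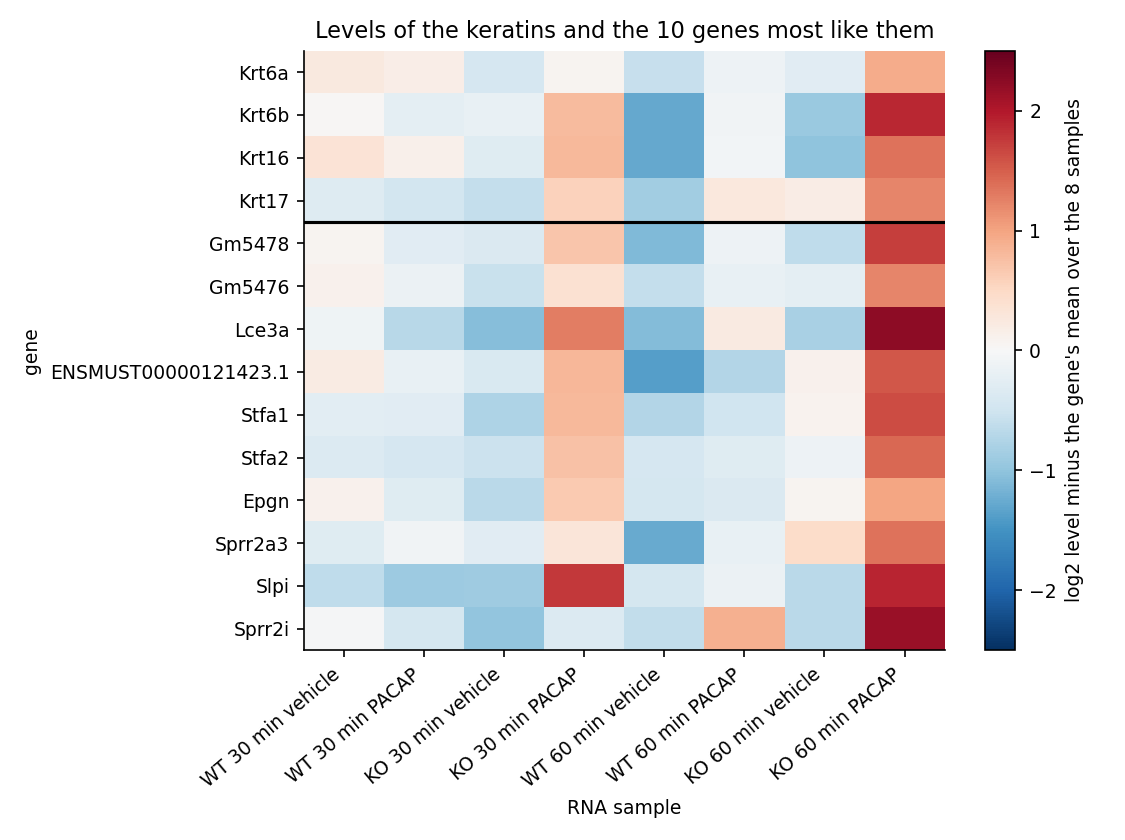
Log2 level of each gene (rows) in the 8 RNA samples (columns), minus the mean of that gene over the 8 samples, from blue (lower) to red (higher); the 4 keratins are above the line and the 10 most similar genes below it. The KO 60 min PACAP column is the reddest for all 4 keratins, while Slpi is nearly as high in KO 30 min PACAP.

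Genes of activated keratinocytes, and genes that act with or upstream of these keratins, were counted from lists. The lists were chosen with earlier results of these data known, so the counts describe them and test nothing. Among 24 genes of activated keratinocytes, 1, 9, 1 and 5 were called higher in WT 30 min, KO 30 min, WT 60 min and KO 60 min and none lower, beside 0.267%, 0.692%, 0.659% and 0.179% of all genes called higher. In KO at 60 min the largest were Slpi, the defensin gene Defb4 (4.96-fold) and the alarmin gene S100a8 (4.56-fold). In KO at 30 min the collagenase gene Mmp13 read 13.98-fold, with its vehicle signal well above background on 1 of 2 arrays, and S100a8 4.13-fold. Of 10 genes for epidermal growth factor receptor ligands and receptors, which drive keratin 6 and 16 in culture, only the ligand gene Epgn was called, in KO at 30 min (2.86-fold, against 1.97-fold in KO at 60 min).

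Of 18 measured cytokine genes that act on keratinocytes, Il6 and Il1b were called higher at 30 min in both genotypes, where 0.267% (WT) and 0.692% (KO) of all genes were. Il6 read 4.47-fold in the WT comparison and 3.80-fold in the KO one. Il1b read 2.10-fold (WT) and 4.76-fold (KO). None of the 4 keratins was called in the WT comparison at that time, and 2 of the 4 were called in the KO one. The part of these cytokines in the keratin ratios was not tested. At 60 min the only cytokine gene called was Il19 in KO skin (2.08-fold). None of 17 genes for transcription factors and regulators tied to these keratins (Fosl1, Stat3, Nfe2l2 and Myc among them) was called in any comparison, which for a list of this size is near the background of 0.179% to 0.692% of all genes called higher and says little about them. Their median ratios ran from 0.861-fold to 1.18-fold. The 18 genes of desmosomes and keratin linkers, the anchors of the filaments, had no call either, against the same background, with medians of 1.12-fold, 0.698-fold, 1.04-fold and 1.19-fold.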

How the data were processed

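Total RNA of palm skin was labelled with Cy3 and Cy5 and hybridised to Agilent mouse 44K arrays as 4 dye-swapped comparisons (8 arrays). Per the file headers, the authors' scanner software (Feature Extraction 12.0.3.1 in the headers, 11.0.1.1 in the submitters' processing notes) subtracted background, normalized the dyes by LOWESS and deposited for each spot 2 signal intensities, a log10 ratio and its p-value, with probe positions on mm9. The series table the authors deposited holds the same values as log10 ratios and was used as an alternative. A gene spot total of 43020 per array was read, outlier spots (198 to 342 per array) were left out, the log10 ratio was turned to PACAP over vehicle in log2 units, spots of a probe were averaged, and the swapped arrays were averaged to 1 value.

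Deposited intensities were background-corrected (normexp, offset 50), normalized by loess and between arrays (Aquantile) for log2 levels. Limma 3.58.1 (R 4.3.3) tested how the comparisons differ, with p-values adjusted by the Benjamini-Hochberg method over all probes. Levels and ratios were processed with Python 3.11.15. Simulated data with 200 changed probes gave 147 to 194 found by limma at a log2 change of 3 (147 for KO against WT among 30351 probes) and 200 of 200 by the calling rule at a log2 change of 2. For the calling rule the simulated arrays held only technical spread and a change well above the threshold. That result checks the code and says nothing of the spread between mice. A log2 fold change between arrays is limited in precision by their number.

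The members and gene lists were chosen with earlier results of these data known. The genes named are the 4 keratins with all probes, list genes past the thresholds (keratin lists in full, at most 3 per other list and KO time point), Adcyap1r1, and the 10 genes most like the keratins. Krt5, Krt9, Krt14, Krt15, Krt42, Krt75, Krt87, Krt90, Gm5414, Gm5477, the hair genes and the WT values of list genes were added after their values were seen. Promoter and protein comparisons of the 4 genes were not done, as no sequence table used here held them. Where a gene has more than 1 probe, the brightest over all arrays was used. Alternatives were other fold and p thresholds, single arrays, normexp with loess, centring, the series table, covariates, filters and leaving out each comparison.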

Additional observations from a re-analysis of the deposited data

How the results depend on the processing

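The counts of keratin probes called were 0, 3, 3 and 5 (WT 30 min, KO 30 min, WT 60 min, KO 60 min) with no scanner p filter, with normexp and loess, with centred arrays and from the series table. With the fold demanded on each array, KO at 30 min fell to 1 and WT at 60 min to 2, since single arrays lay just under 2.0-fold. With 1 array of each dye swap left out in turn, the counts ranged from 2 to 3 in KO at 30 min and in WT at 60 min, and stayed at 5 in KO at 60 min and at 0 in WT at 30 min. With a threshold of 1.5-fold they were 0, 4, 4 and 5.

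The limma counts over all probes moved with the model. For KO against WT, 0 became 17 with time as a covariate and ranged from 0 to 170 on leaving out 1 comparison (170 without WT 30 min, 83 without WT 60 min). For 60 against 30 min, 0 became 2 with genotype as a covariate and ranged from 0 to 18 (18 without KO 60 min). For the mean effect the range was 0 to 1 (1 without WT 30 min), and for both vehicle tests it was 0 throughout. The keratins passed in none of the covariate fits.

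Signs of single keratin differences (log2) turned on leaving out 1 comparison. The 60 against 30 min ratio of Krt17 ranged from -0.13 (without WT 30 min) to 1.23. Vehicle levels in KO against WT ranged from -1.02 to 0.47 for the shared probe and from -0.60 to 0.21 for Krt6a, both highest without WT 30 min. For Krt17 they ranged from -0.01 (-0.0079, without KO 60 min) to 0.79. For Krt16 they ranged from -0.99 to 0.62 (without WT 30 min), with 0.18 without KO 60 min. For the Krt6b probe they ranged from -0.59 (without WT 60 min) to 0.72, with -0.30 without KO 30 min, and were -0.05 (-0.048) from quantile-normalized processed signals. Vehicle levels at 60 against 30 min ranged from -1.14 to 0.12 (without WT 30 min) for the shared probe and from -0.42 (without KO 60 min) to 0.65 for Krt17, with -0.03 (-0.027) without KO 30 min. The cause was not tested. No paired analysis was possible because the numbers 1 and 2 of a comparison mark the dye swap of 1 RNA pair, which was averaged before any fit. The numbers pair no samples across comparisons, and the fits with time or genotype as a covariate, given above, are those that compare within a time or a genotype.

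With 1 RNA pair in each comparison, the spread between animals was not measured, and the 4 values of a limma fit mix genotype and time. Signal over background did not limit the 4 keratins.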
